A study of Rattus norvegicus with 14 samples.

Results

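Genes that defend the heart against oxidants and handle its metals were compared between diabetic and control male Wistar rats. The diabetic rats had been given streptozotocin (STZ), a toxin of the pancreatic beta cell, at 60 mg/kg by tail vein under halothane. The control rats had been given saline by the same route. Streptozotocin causes diabetes through loss of insulin, and a direct action of the drug on the heart cannot be told apart from diabetes here. Left ventricle was taken from perfused hearts 16 weeks later, and RNA from 7 rats in each group was measured on 14 Affymetrix rat expression arrays. The labels give no age. They name 2 RNA extraction kits without saying which rat had which, so a kit effect was not tested. A description field of the diabetic samples reads saline, while their titles, source names and protocol read diabetic or STZ, and the latter were followed.

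The set was a list of 34 genes for the removal of superoxide and peroxide, the thioredoxin and glutathione systems, heme breakdown, iron storage and metal binding. A gene was taken as measured when a probe set, a group of short DNA probes, was annotated with its symbol and no other. This held for 30 of the 34 genes, through 41 probe sets, of 14217 genes and 31042 probe sets measured in all. Prdx1, Fth1 and Ftl1, a peroxiredoxin and both ferritin subunits, are named only on probe sets that list several genes and are not reported. Mt1a has no probe set under that symbol. A gene was represented by its brightest probe set, and its other probe sets are given beside it.

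Superoxide leaks from the respiratory chain and is made by NADPH oxidases, the family of Nox4. Superoxide dismutases turn it into hydrogen peroxide, which glutathione peroxidases and peroxiredoxins reduce at the expense of glutathione and thioredoxin, and both are recharged with electrons from NADPH. Glutaredoxins take glutathione off protein thiols. The transcription factor Nrf2 (Nfe2l2) is held down by Keap1 and, when released, raises many of these genes through antioxidant response elements. Heme oxygenase frees iron from heme, ferritin stores iron, ferroportin (Slc40a1) exports it, and metallothioneins bind zinc and copper. The heart is rich in mitochondria, and diabetes is widely studied as a state of oxidative stress.

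Of the 30 genes, 2 differed between diabetic and control ventricles at an adjusted p under 0.05 (limma, Benjamini-Hochberg over all 31042 probe sets). Glrx, cytosolic glutaredoxin, was higher, and Hmox1, the inducible heme oxygenase, was lower. Over all genes the share called was 1.72% (0.943% higher and 0.781% lower). The share among the 30 was 6.67%, which rests on 1 gene in each direction. At an unadjusted p under 0.05 there were 3 of 30 (Glrx, Hmox1 and Txn1), 10%, beside 11.5% of all genes. Counted by probe set, 2 of 41 were called beside 1.14% of all probe sets (0.619% higher and 0.522% lower). At an unadjusted p under 0.05 there were 6 of 41 beside 9.60%, and 0 of 41 had groups without overlap beside 1.20%. The median change was -0.03 (log2) over the 30 genes and -0.00215 over all genes, and 14 of the 30 estimates were above 0 and 16 below. The 95% interval lay wholly within 1.5-fold either way for 22 of the 30, and within 2-fold for 28. Over all genes it lay within 1.5-fold for 59.3%. All changes here are differences of log2(scaled signal + 50), diabetic minus control, and the added 50 shrinks the change of dim probe sets.

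**Figure D1:**
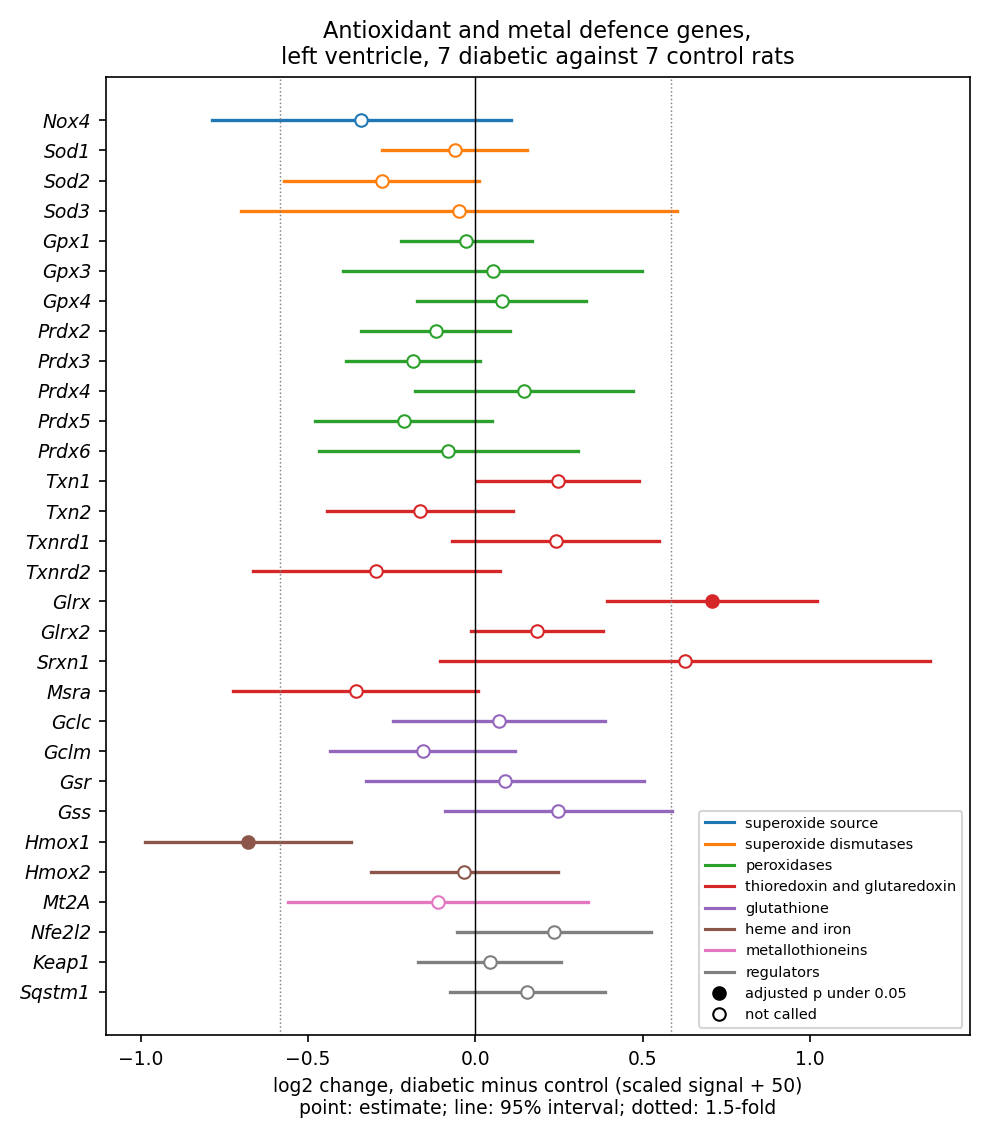
Log2 change (diabetic minus control) of the 30 measured genes, ordered by role, each with its estimate and 95% interval from 7 animals per group. Filled points mark Glrx (0.71) and Hmox1 (-0.68), which passed an adjusted p of 0.05, and dotted lines mark 1.5-fold.

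Before the single genes, some facts of the arrays bear on them. Median deposited signal ran from 14.8 (diabetic replicate 1) to 85.0 (diabetic replicate 2), and control replicates 3 and 5 were also dim. The labels name no batch. By their RNA spike-in and actin control readings the arrays fell into 3 sets, called batches here, with 2 control and 2 diabetic arrays in batch A, 2 and 2 in B and 3 and 3 in C. The log2 ratio of 3' to 5' actin probe sets, which rises as RNA degrades, was 1.42 to 1.71 in batch A and 0.673 to 0.989 elsewhere, except 1.47 in diabetic replicate 5 of batch C. This ratio was itself used to part batch A from batch B, so their gap in it was set by construction. The ratio did not separate control from diabetic arrays (control 1.03 ± 0.40, diabetic 1.09 ± 0.39, exact permutation p = 0.818, SD over 7 arrays). For 5 of the 30 genes the 4 arrays of batch A lay apart from all 10 others, against 7.40% of all genes. These were Sod3, Gpx3, Prdx6 and Txnrd2, lower in batch A, and Sod1, higher. Because the batches hold both groups equally, the estimated group difference is not shifted by them, but the spread within groups is. The change had the same sign in all 3 batches for 19 of the 30 genes, beside 39.0% of all genes.

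Glrx signal in the 7 controls had a lowest value of 9.05, a median of 9.44 and a highest of 9.920 (log2). In the 7 diabetic animals these were 9.915, 10.15 and 10.41. The groups thus touched: 6 of 7 diabetic animals lay above every control, and diabetic replicate 2 lay just under the highest, control replicate 2. The mean was 9.45 ± 0.30 in control and 10.16 ± 0.22 in diabetic (SD, n = 7 each), a change of 0.71 ± 0.15 (SE) or 1.63-fold (95% interval 1.31 to 2.03, limma adjusted p = 0.0249). By itself the difference had an exact two-sided permutation p of 0.00117 over all 3432 assignments of the 14 animals. Like that of Hmox1 below, this p was computed only after the call and on the same values, so it adds no separate support. The Glrx change was 0.57 in batch A, 0.55 in batch B and 0.90 in batch C, with 0 calls in any batch alone (limma adjusted p of 0.375 to 0.563).

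The second probe set of Glrx moved in the same direction. It ran from 8.42 to 9.19 in control and from 8.86 to 9.89 in diabetic, and 5 of 7 diabetic animals lay above every control. Its change was 0.48 ± 0.17, with a limma adjusted p of 0.320, so it was not called. Averaging both probe sets gave 0.59 with an adjusted p of 0.0597. The Glrx call also ended on removal of 1 array in 6 of 14 cases, namely controls 3 and 4 and diabetics 1, 5, 6 and 7, with changes of 0.64 to 0.71 and limma adjusted p of 0.0518 to 0.0646. With the 3 dimmest arrays removed the change was 0.60 (adjusted p = 0.182).

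Hmox1 ran from 8.81 to 9.47 in control, with a median of 9.24, and from 8.10 to 8.83 in diabetic, with a median of 8.48. Here 6 of 7 diabetic animals lay below every control, while diabetic replicate 4, at 8.830, exceeded 2 controls, replicate 4 at 8.827 and replicate 6 at 8.809. The mean fell from 9.14 ± 0.25 to 8.46 ± 0.27 (SD, n = 7 each), a change of -0.68 ± 0.15 (SE), or 0.624-fold (95% interval 0.504 to 0.773, limma adjusted p = 0.0284, exact two-sided permutation p = 0.00175). By batch the Hmox1 change was -0.64 in A, -0.67 in B and -0.71 in C, and none of the 3 alone gave a call (limma adjusted p of 0.378 to 0.606). The Hmox1 call ended on removal of 1 array in 10 of 14 cases, namely number 1, 2, 3, 5 or 7 of either group, with changes of -0.69 to -0.62 and adjusted p of 0.0519 to 0.0752. Without the 3 dimmest arrays the change was -0.53 (limma adjusted p = 0.221). Only 1 probe set measures Hmox1, so a second reading from the same gene is lacking.

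**Figure D2:**
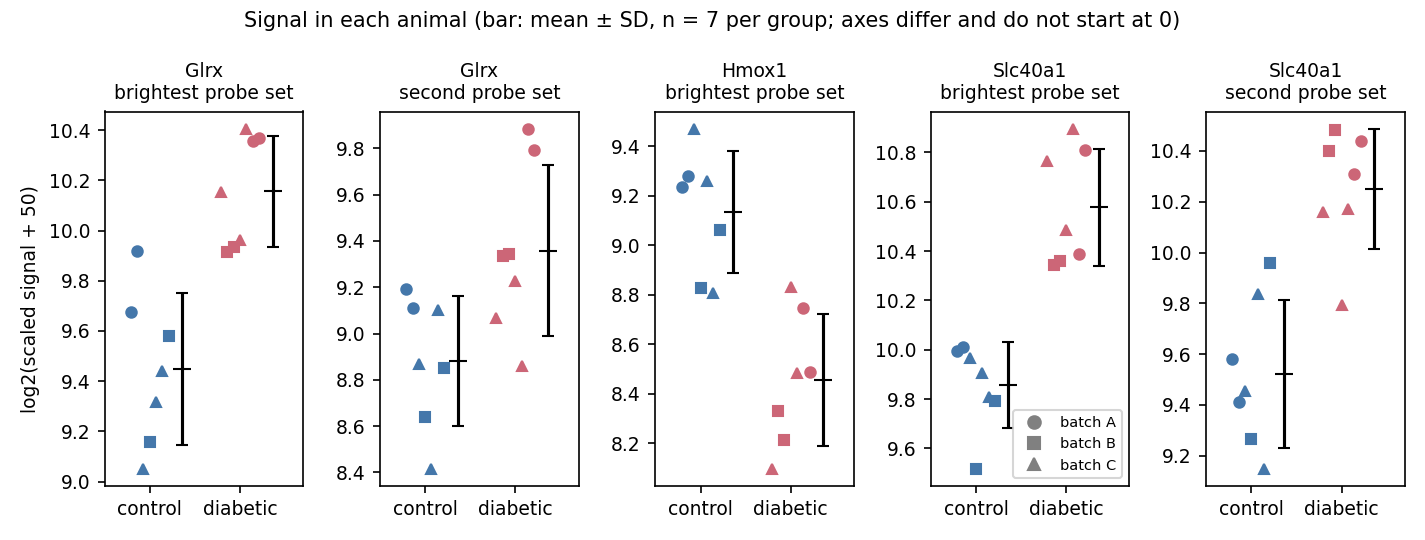
Log2(scaled signal + 50) in each of the 14 animals for both probe sets of Glrx, the probe set of Hmox1 and the brightest and second probe sets of the iron exporter Slc40a1, with mean ± SD (n = 7 per group), a marker shape for each batch and an axis of its own in each panel. The groups are fully apart for the brightest Slc40a1 probe set alone; in the second Glrx probe set 5 of 7 diabetic animals lie above every control.

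Heme oxygenase 1 is abundant in macrophages and endothelial cells, and whether fewer cells of a type or less RNA per cell lowered its signal cannot be told apart in bulk tissue. Of 9 macrophage markers 0 were called, and 8 of the 9 estimates were above 0. At an unadjusted p under 0.05 there were 3, or 33.3% beside 11.5% of all genes. These were Mrc1 (0.71 ± 0.18, limma adjusted p = 0.0721), Cd163 (0.71 ± 0.23, adjusted p = 0.231) and Cd68 (0.59 ± 0.23, adjusted p = 0.369). The summed scaled signal of the 9 was 7549 to 15120 in control and 9979 to 14310 in diabetic, and none of the 9 had a mean below the offset. The brightest of them was Lyz2 (mean log2 signal 12.27 and 12.34, change 0.07). Of 7 endothelial markers 0 were called (1 at an unadjusted p under 0.05), and their sum was 13490 to 15230 in control and 13720 to 17010 in diabetic. The erythrocyte list had 1 of 5 called, lower (Slc4a1, log2 -1.22 ± 0.18, the band 3 anion exchanger, which heart muscle may also express). The second Slc4a1 probe set was not called (-0.49 ± 0.18, limma adjusted p = 0.319), and the other 4 erythrocyte markers had estimates above 0. Of those 4, Ahsp and Epb42 had means below the offset. Hbb, the defining erythrocyte marker, ran from 9.92 to 12.86 in control and from 10.62 to 12.97 in diabetic, and the summed erythrocyte signal was 1815 to 8211 and 1748 to 8526. Fat cell markers had 2 of 6 called, both higher (Aqp7 and Cfd), and a summed signal of 3357 to 5645 in control and 9635 to 11970 in diabetic, a sum carried mostly by Aqp7 (mean log2 signal 11.88 and 13.17). Adipoq (0.36 ± 0.21) and Plin1 (0.05 ± 0.22) were not called, and Cidec and Lep had means below the offset. Of 5 leukocyte markers 0 were called and 2 had an unadjusted p under 0.05, S100a9 (1.41 ± 0.35, limma adjusted p = 0.0703) and Ptprc (0.36 ± 0.15, adjusted p = 0.437). The leukocyte sum was 325.6 to 660.7 in control and 472.2 to 1460 in diabetic. Of 8 fibroblast and 4 smooth muscle markers 0 were called, and 0 had an unadjusted p under 0.05. The part of these cell types in the changes of Glrx, Hmox1 and Slc40a1 was not tested. All 9 measured cardiomyocyte markers had mean signals above the offset, with 0 called (2 at an unadjusted p under 0.05), and their sum was 217900 to 328000 in control and 226100 to 345700 in diabetic. All 4 atrial markers had estimates above 0 (median 1.03) with 0 called and 1 at an unadjusted p under 0.05 (Nppa, 0.56 ± 0.18, also a stress gene of the ventricle). Their sum was 10800 to 52640 in control and 23860 to 43260 in diabetic.

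Hmox2, the constitutive heme oxygenase, had nearly the same signal in both groups (10.31 ± 0.24 in control and 10.28 ± 0.20 in diabetic, change -0.03, 95% interval -0.31 to 0.25). Among 16 measured genes of iron and heme handling 1 was called, higher, and 0 lower (6.25% called, beside 1.72% of all genes). An unadjusted p under 0.05 was held by 3 (18.75%, beside 11.5% of all genes). The called gene was Slc40a1, ferroportin, the only known cellular iron exporter. Its signal ran from 9.52 to 10.01 in control and from 10.34 to 10.90 in diabetic, so all 7 diabetic animals lay above all controls. Of all genes 1.84% had groups without overlap, and of the 30 genes 0. The change was 0.72 ± 0.13 (SE), or 1.65-fold (1.37 to 1.99, limma adjusted p = 0.00670). The second Slc40a1 probe set was also called (0.73 ± 0.15, adjusted p = 0.0210), and the remaining one by 0.42 ± 0.16 without passing (adjusted p = 0.333). Leaving out each array in turn kept the call of Slc40a1, with changes of 0.67 to 0.76 and limma adjusted p of 0.00837 to 0.0197. It was lost without the 3 dimmest arrays (0.72, limma adjusted p = 0.0542), and no batch alone gave it (0.60, 0.70 and 0.82 in A, B and C).

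Among the superoxide dismutases 0 of 3 were called by limma, and 0 had an unadjusted p under 0.05. Sod1, the cytosolic copper and zinc enzyme, was 13.91 ± 0.10 in control and 13.84 ± 0.16 in diabetic, and its interval (-0.28 to 0.15) lay within 1.5-fold. Sod2, the manganese enzyme of mitochondria, ran from 12.79 to 13.59 with a median of 13.16 in control, and from 12.49 to 13.11 with a median of 12.95 in diabetic. Its estimate was -0.28 ± 0.14 (limma adjusted p = 0.552), of like size in each batch (-0.26, -0.35 and -0.25). Sod3, the secreted form bound to the matrix, varied widely. In batch A it lay between 9.996 and 10.29, and in batches B and C between 10.83 and 11.895, so that its interval (-0.70 to 0.60) exceeds 1.5-fold both ways.

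None of the 8 measured peroxidases was called, none had an unadjusted p under 0.05, and all 8 intervals lay within 1.5-fold. Gpx1, the main cytosolic glutathione peroxidase, differed by -0.03 ± 0.09 (SE), and Gpx4, which reduces lipid peroxides in membranes, by 0.08 ± 0.12. Gpx3, the secreted form, differed by 0.05 ± 0.21, with batch A low in both groups. A second Gpx4 probe set, dim on 12 of 14 arrays (scaled signal under 50), read 0.39 ± 0.16 (limma adjusted p = 0.426). Prdx3, the mitochondrial peroxiredoxin, showed a tight spread: 13.42 to 13.62 in control and 13.14 to 13.51 in diabetic, with 5 of 7 diabetic animals below every control. The estimate for Prdx3 was -0.19 ± 0.09 and did not pass (limma adjusted p = 0.571). Prdx5, found in mitochondria and peroxisomes, had 4 of 7 diabetic animals below every control and an estimate of -0.21 ± 0.12 (adjusted p = 0.647). Prdx2 (-0.12), Prdx4 of the secretory pathway (0.15) and Prdx6 (-0.08) were not called either.

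In the thioredoxin and glutaredoxin group 1 of 8 was called, Glrx. Glrx2, the mitochondrial glutaredoxin, ran from 11.01 to 11.21 in control and from 11.19 to 11.49 in diabetic, and 6 of 7 diabetic animals lay above every control. Its estimate was small, 0.18 ± 0.09 (limma adjusted p = 0.566), and 0.45 ± 0.18 in its second probe set (adjusted p = 0.396), so the rise was not called. Txn1, cytosolic thioredoxin, ran from 12.69 to 13.16 in control and from 12.99 to 13.37 in diabetic, with 4 of 7 diabetic animals above every control. Its estimate was 0.25 ± 0.11 (limma adjusted p = 0.509). Txn2, its mitochondrial counterpart, had -0.17 ± 0.13 (adjusted p = 0.770).

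The reductases that recharge thioredoxin had estimates of opposite sign as well, neither of them called. Txnrd1 of the cytosol had 0.24 ± 0.15 and 0.18 ± 0.16 in its probe sets (limma adjusted p = 0.666 and 0.815), and Txnrd2 of mitochondria -0.30 ± 0.17 (adjusted p = 0.652). The difference between cytosolic and mitochondrial forms was not tested. Txnip, a protein that binds and inhibits thioredoxin and is raised by glucose, was outside the lists and is named after its values were seen. It ran from 12.70 to 13.50 in control and from 14.10 to 14.50 in diabetic and was 2.44-fold higher (log2 1.29 ± 0.14, limma adjusted p = 9.68e-05).

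Srxn1, sulfiredoxin, which repairs over-oxidised peroxiredoxins, had the widest interval of the 30 (-0.11 to 1.36). In control it ran from 6.17 to 8.98, the lowest being control replicate 5, a dim array, and in diabetic from 8.38 to 9.19. Its estimate of 0.63 ± 0.35 rested on batch C (1.41), against 0.34 in A and -0.26 in B, and its other probe sets read -0.14 and 0.02. Without control replicate 5 the Srxn1 estimate was 0.29, and with array weights 0.24. Msra, which repairs oxidised methionine, ran from 7.79 to 8.83 in control and from 7.61 to 8.52 in diabetic, with an estimate of -0.36 ± 0.17 (limma adjusted p = 0.542).

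**Figure D3:**
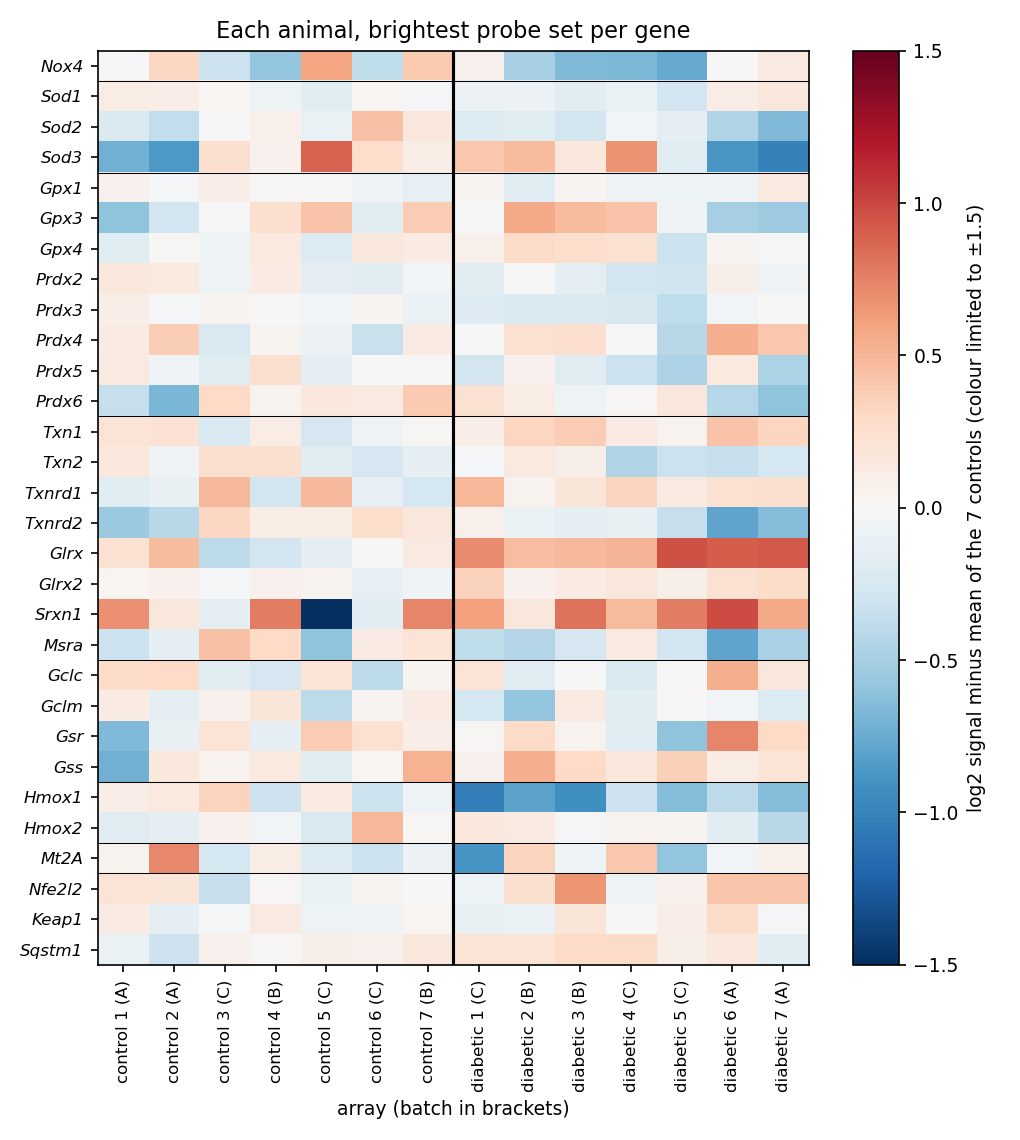
Log2 signal of each animal minus the mean of the 7 controls for the 30 genes (colour limited to ±1.5), with the batch of each array in brackets. Glrx is above the control mean and Hmox1 below it in every diabetic animal, while Sod3, Gpx3, Prdx6 and Txnrd2 are low in the batch A arrays of both groups.

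The glutathione genes had 0 of 4 called and 0 with an unadjusted p under 0.05. Gclc, the catalytic subunit of the first and limiting enzyme of glutathione synthesis, differed by 0.07 ± 0.15 (SE) in its brightest probe set and by 0.15 ± 0.29 in the other, which varied more among controls (SD 0.77). Gclm, its modifier, differed by -0.16 ± 0.13. Gss, glutathione synthetase, had 0.25 ± 0.16, and Gsr, glutathione reductase, 0.09 ± 0.20. The Gsr estimate changed sign between batches, from 0.90 in A to 0.19 in B and -0.52 in C. Metallothionein Mt2A ran from 9.61 to 10.66 in control and from 9.05 to 10.34 in diabetic, with a change of -0.11 ± 0.21 and an interval of -0.56 to 0.34. Control replicate 2 was the highest animal and diabetic replicate 1 the lowest. Mt1, whose RefSeq entry carries Mt1a as a synonym, lies outside the selection rule, and its probe set was below the offset on 8 of 14 arrays (0.15 ± 0.28).

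Of the regulators 0 of 3 were called by limma, and 0 had an unadjusted p under 0.05. Nfe2l2 ran from 10.67 to 11.23 in control and from 10.95 to 11.68 in diabetic, with 4 of 7 diabetic animals above every control and an estimate of 0.24 ± 0.14 (limma adjusted p = 0.643). Keap1 differed by 0.04 ± 0.10, with an interval (-0.17 to 0.26) inside 1.5-fold, while its second probe set read 0.23 ± 0.45 and ranged widely, from 5.985 to 8.87 over the 14 animals. Sqstm1, the autophagy adaptor p62 that can draw Keap1 away from Nrf2, had 0.15 ± 0.11 in its brightest probe set. All 4 of its probe sets had estimates above 0 (0.01 to 0.15) without a call. The dimmest, at 0.01, was below the offset on all 14 arrays, so its sign says little. Nox4, the superoxide and peroxide source in the list, was below the offset on 11 of 14 arrays. Its signal ran from 5.90 to 7.06 in control and 5.72 to 6.61 in diabetic (-0.34 ± 0.21, limma adjusted p = 0.678), so a change of this gene could have been understated.

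Promoter sequence was set beside these values for 25 of the 30 genes, from RefSeq on the rat assembly GRCr8, as the 250 bases before the annotated start. Sod3, Prdx6, Gsr, Hmox1 and Msra had no entry. The core of the antioxidant response element, TGACNNNGC on either strand, was found in 5 of the 32 promoter sequences of these genes (15.6%), and in 10.1% of all 33469 promoter sequences. The 5 belong to Sod2, Txnrd1, Gclm, Hmox2 and Mt2A. The promoters below are those of Glrx, the called gene with an entry, and of Gclm and Txnrd1, which Nrf2 is known to control. Gclm and Txnrd1 were picked from the 5 genes that hold the core. Capitals mark the element core. Gclm lies at chr2:213031885-213032134 on the plus strand, Txnrd1 (the start that holds the core, of 2 in the table) at chr7:22755905-22756154 on the minus strand, and Glrx at chr2:7073545-7073794 on the plus strand.
Glrx: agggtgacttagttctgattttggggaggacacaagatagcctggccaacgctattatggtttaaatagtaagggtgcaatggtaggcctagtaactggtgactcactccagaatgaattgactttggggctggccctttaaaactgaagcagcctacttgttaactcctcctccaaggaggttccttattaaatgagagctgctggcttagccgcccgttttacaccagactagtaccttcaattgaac
Gclm: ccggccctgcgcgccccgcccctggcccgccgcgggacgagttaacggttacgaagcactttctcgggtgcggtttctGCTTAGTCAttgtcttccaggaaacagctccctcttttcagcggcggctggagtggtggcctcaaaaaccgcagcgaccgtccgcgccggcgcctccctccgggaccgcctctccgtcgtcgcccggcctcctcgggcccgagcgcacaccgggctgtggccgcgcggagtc
Txnrd1: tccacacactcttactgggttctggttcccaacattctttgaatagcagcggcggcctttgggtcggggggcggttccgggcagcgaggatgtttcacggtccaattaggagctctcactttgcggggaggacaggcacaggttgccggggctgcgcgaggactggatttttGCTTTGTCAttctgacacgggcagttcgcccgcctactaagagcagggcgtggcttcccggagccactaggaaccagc

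The Glrx window held no match to this core, and the Gclm and Txnrd1 windows held 1 each, at 172 to 164 and 78 to 70 bases before the start. The other Txnrd1 start and the windows of Gclc, Srxn1 and Sqstm1 held no match either, so its absence does not set Glrx apart. The estimates beside them were 0.71 for Glrx, which was called, and -0.16 for Gclm and 0.24 for Txnrd1, which were not. A match is a description of letters, and binding was not measured.

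The Mt2A promoter is shown for letters like those of metal response elements, the sites at which the zinc sensor Mtf1 acts on metallothionein genes. The pattern searched was TGCNCNC on either strand, which is looser than the usual core, TGCRCNC with R for A or G. This looser pattern, a short and common run, was held by 43.4% of all promoter sequences and by 18 of the 32 here (56.2%), that of Glrx among them. The share holding the stricter core was not counted. In Hmox2 2 matches on opposite strands overlap. Mt2A held 5 matches, in capitals, within chr19:10838709-10838958 (minus strand). They overlap neither each other nor its antioxidant element match at 237 to 229 bases before the start. The match GAGGGCA, at 92 to 86 bases before the start, does not meet the stricter core.
Mt2A: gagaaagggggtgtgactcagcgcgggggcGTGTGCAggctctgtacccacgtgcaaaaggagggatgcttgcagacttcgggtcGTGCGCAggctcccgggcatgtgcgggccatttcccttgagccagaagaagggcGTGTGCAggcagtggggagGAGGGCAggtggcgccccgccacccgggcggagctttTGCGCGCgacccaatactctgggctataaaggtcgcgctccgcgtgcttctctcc

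Other genes of the same chemistry were counted from chosen lists. Over all genes 1.72% were called and 11.5% had an unadjusted p under 0.05. Of 10 measured genes of NADPH supply 0 were called (1 at an unadjusted p under 0.05), the smallest p being that of Idh1, cytosolic isocitrate dehydrogenase (0.46 ± 0.11, SE, limma adjusted p = 0.0761). Of 21 genes listed as selenoproteins and further thiol enzymes 0 were called, and 4 (19.05%) had an unadjusted p under 0.05. The smallest p was that of Selenos, a selenoprotein of the endoplasmic reticulum (-0.57 ± 0.13, limma adjusted p = 0.0521, 6 of 7 diabetic animals below every control). Catalase (Cat), the peroxisomal enzyme that splits hydrogen peroxide, was counted in that list, though neither a selenoprotein nor a thiol enzyme. It is named after its values were seen. It ran from 12.82 to 13.56 in control and from 13.51 to 13.92 in diabetic, with 5 of 7 diabetic animals above every control (0.45 ± 0.12, limma adjusted p = 0.106). Idh1, Cat and Selenos were called with an offset of 200, with a variance prior that follows signal, and among the brighter probe sets alone. With batch as a block Idh1, Selenos and Cp were called. Cp, ceruloplasmin, the ferroxidase of the iron list, had an estimate of 0.61 ± 0.19 (limma adjusted p = 0.213 without the block). Selenos was also called with cyclic loess and, beside Slc3a2, with array weights.

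Of 17 Nrf2 pathway regulators and transporters 0 were called (2 at an unadjusted p under 0.05), the smallest p being that of Slc3a2, a heavy chain of amino acid transporters (0.37 ± 0.12, limma adjusted p = 0.245). Of 14 genes of zinc and copper handling 0 were called (2 at an unadjusted p under 0.05), led by the copper transporter Slc31a2 (0.35 ± 0.12, adjusted p = 0.278). Of 16 sources of superoxide and peroxide 0 were called (1 at an unadjusted p under 0.05), led by Cybb, the NADPH oxidase subunit of phagocytes (0.44 ± 0.20, adjusted p = 0.485). Across these 5 lists and that of iron handling the median change lay between -0.10 and 0.13, beside -0.00215 for all genes. Limma made 1 call in the 6 lists together, that of Slc40a1. Of all genes 1.72% were called, and 11.5% had an unadjusted p under 0.05.

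**Figure D4:**
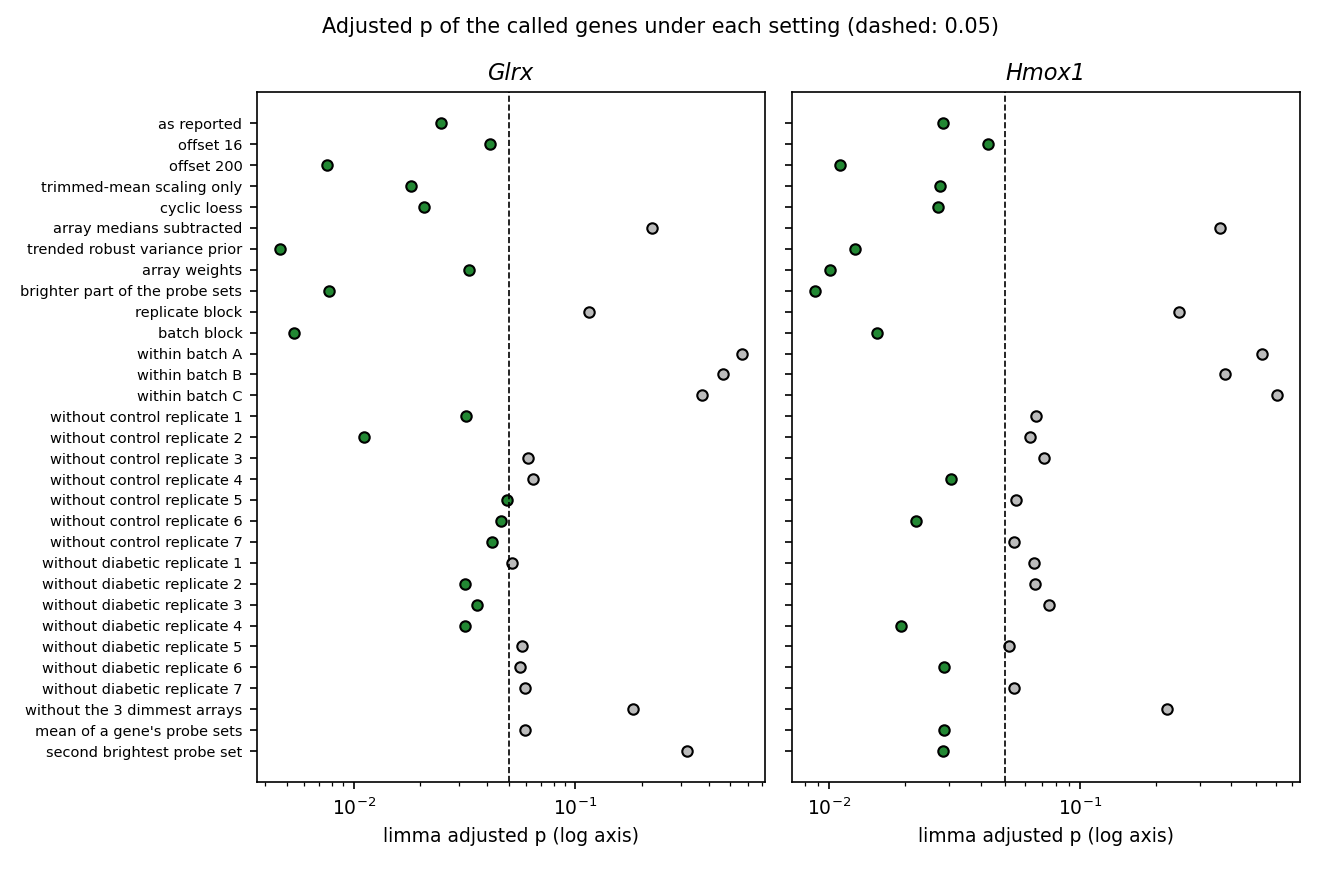
Limma adjusted p (log axis) of Glrx and Hmox1 under each processing setting and with each array left out, with the threshold of 0.05 dashed. Green points passed and grey points did not; Glrx passed with 8 and Hmox1 with 4 of the 14 arrays left out singly.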

How the data were processed

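The deposited values are linear intensity readings of the authors, 1 for each probe set on each array. The submitters' processing notes list the tools MAS5, RMA, affy and limma, with neither roles nor versions. With 57 control probe sets removed, arrays were scaled to a trimmed mean of 500 (2% trimmed at either end). Then log2(scaled signal + 50) was quantile normalised. A scaled signal under 50 (log2 under 6.64) is called below the offset. Limma 3.58.1 in R 4.3.3 fitted group alone over 31042 probe sets (two-sided, Benjamini-Hochberg). The labels call the replicates biological. Symbols came from the array annotation, and all 41 probe sets of the 30 genes matched RefSeq by gene ID and symbol. Named genes were every member, each list's called genes or its smallest p, and those said to be chosen later. Members and lists were chosen with earlier results of these data known. Alternatives covered offset, scaling, variance prior, weights, dim probe sets, batch, replicate number, single arrays and choice of probe set. Detection calls and saturation were not used. The number of arrays limits the precision.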

Additional observations from a re-analysis of the deposited data

Results flagged for a closer look

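In 60 groups of 7 animals (30 genes, control and diabetic) the gap of the most extreme animal to its neighbour was divided by the range of the group and set against Dixon's 95% critical value. It was exceeded in 3, where chance exceeds it in about 1 group in 20. In the controls Srxn1 had control replicate 5 at 6.17, far under the next at 8.04 (0.666 of the range). Mt2A had control replicate 2 at 10.66 above the next at 10.05 (0.582), and Hmox2 had control replicate 6 at 10.81 above the next at 10.37 (0.599). None of the 7 diabetic animals stood apart in this way for any of the 30 genes.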

How the results depend on the processing

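The 2 called genes, Glrx and Hmox1, stayed called with offsets of 16 and 200, trimmed-mean scaling alone, cyclic loess, a trended robust variance prior, array weights, the brighter probe sets and batch as a block. With array medians subtracted 0 of the 30 genes were called, with replicate number as a block 0, without the 3 dimmest arrays 0 and by limma in batch A, B or C alone 0 each. At an unadjusted p under 0.05 these settings gave 2, 2, 4, 3, 5 and 3 of the 30. With the mean or the second of a gene's probe sets 1 was called. Leaving out single arrays gave 0 to 2. Both changes kept their sign in all 30 settings (0.48 to 0.90 for Glrx and -0.74 to -0.51 for Hmox1). With these 2 included, 18 of the 30 genes kept the sign of their estimate throughout. Besides Glrx and Hmox1 no gene of the 30 was called in any setting. Over all probe sets 354 were called. There were 561 with an offset of 200, 540 with the trended prior, 560 among the brighter probe sets, 645 with the batch block, 137 with medians subtracted, 142 with the replicate block, 189 without the 3 dimmest arrays 0 within each batch (2390, 3203 and 2426 at an unadjusted p under 0.05), and 260 to 332 without single arrays. In the lists of other genes the 1 call (Slc40a1) became 4 with an offset of 200, the trended prior, the brighter probe sets and the batch block, 3 with array weights, 2 with cyclic loess, and 0 with medians subtracted, the replicate block, without the 3 dimmest arrays and within batches, and 1 to 2 without single arrays. Fits within a batch had 4 or 6 arrays. The cause of the other moves was not tested. Replicate numbers are shared between groups, but animals of like number did not deviate together (correlations -0.16 to 0.09 over all probe sets, 0 of 7 best with their own number), so the replicate block pairs unrelated animals and its lost calls say nothing of a weaker effect.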
